A study of Mus musculus with 24 samples.

Results

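The Slc22 family of membrane carriers moves organic anions and cations across the cells of the kidney tubule, the liver and other epithelia. In the proximal tubule the organic anion transporters Oat1 and Oat3 and the cation transporter Oct2 sit in the basolateral membrane and take up drugs, toxins and waste products from the blood, and apical members such as Urat1 exchange urate and other anions with the tubular fluid. Several of these genes are known in rodents to be expressed at different levels in male and female kidneys. The 9 genes described here, Slc22a2, Slc22a6, Slc22a7, Slc22a8, Slc22a12, Slc22a13, Slc22a19, Slc22a28 and Slc22a30, were taken by symbol from a fixed list. They are 9 of 55335 genes in the count files and 9 of 16092 genes tested. A further 16 Slc22 genes were listed beside them, of which 14 were tested.

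The study asked what the loss of peroxisome biogenesis in the renal tubule does to the kidneys of adult mice of both sexes. RNA from whole kidneys of 24 mice was sequenced, 6 in each of 4 groups. The cKOm (male) and cKOf (female) mice carried 2 floxed Pex5 alleles together with the transgenes Pax8-rtTA and LC1, in which the Pax8 promoter drives the doxycycline-dependent activator in tubule cells and LC1 supplies the Cre recombinase. The Ctrlm and Ctrlf mice were littermates with the same floxed alleles and without both transgenes, so the transgenes and the deletion cannot be told apart. All mice were of C57BL/6J background and drank doxycycline for 2 weeks from 8 weeks of age, and kidneys were taken 4 weeks after its end. The Pax8 promoter directs the deletion at tubule cells, and a whole-kidney level cannot tell fewer cells of a type from less RNA per cell.

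Depth ran from 19376152 to 28470831 counted reads per kidney. Pex5, the targeted gene, encodes the receptor that imports enzymes into peroxisomes, and its gene-wide count does not separate the floxed exons from the others. It stood at 49.1 to 62.8 CPM (the count scaled to a common library size) in Ctrlm and at 41.8 to 47.3 CPM in cKOm, and it was lower in cKOm by a log2 fold change of -0.31 (SE 0.08, edgeR adjusted p = 0.0219). In females Pex5 spanned 43.0 to 61.7 CPM in Ctrlf and 37.997 to 48.5 CPM in cKOf. This difference did not pass the test (log2 fold change -0.21, adjusted p = 0.177). The paper's own measurement of Pex5 mRNA, relative to the Ctrlm mean, found a significant reduction in cKO mice of either sex. It also found PEX5 protein substantially lower, though still detectable, in cKOf. Without the 5 male kidneys described next, which leaves 2 Ctrlm kidneys, the male log2 fold change of Pex5 was -0.26 and did not pass the test (adjusted p = 0.382).

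Male kidneys differed in their content of liver transcripts. The summed level of 7 hepatocyte genes (Alb, Apoa1, Apoa2, Apoc3, Ahsg, Ttr and Serpina3k) ranged from 57.3 to 860 CPM in Ctrlm, 59.0 to 439 CPM in cKOm, 61.0 to 88.7 CPM in Ctrlf and 47.3 to 110 CPM in cKOf. None of the 7 was at 0 in a whole group, and 2 of them, Alb and Apoa2, were called lower in cKOm than in Ctrlm. The kidneys high in them were Ctrlm kidneys 1 to 4 and cKOm kidney 4, and the male genotype results of the 9 genes are given with and without these 5. Proximal tubule markers moved with genotype in males as well: 4 of 6 (Slc7a13, Aqp1, Slc34a1 and Lrp2) were called lower in cKOm, where 4.9% of all tested genes were. The summed level of the 6 was 8115 to 9227 CPM in Ctrlm against 6014 to 6807 CPM in cKOm. The other 2 did not pass the test, Slc5a2 at a log2 fold change of 0.10 and Cubn at -0.17, and Slc7a13 alone of the 6 was called without the 5 liver-rich kidneys. Of 3 thick limb markers 1 was called higher in cKOm, and of 3 intercalated cell markers 2 were called higher and 1 lower, and without those 5 kidneys the lower call alone remained. The proximal tubule sum was 7677 to 8976 CPM in Ctrlf and 6859 to 7999 CPM in cKOf. All 6 proximal tubule markers were detected in every group, and adrenal markers stayed at or below 2.57 CPM in sum. Slc7a13, part of the proximal tubule sums, measured 653 to 962 CPM in Ctrlm and 123 to 225 CPM in cKOm. It was at most 6.01 CPM in any Ctrlf or cKOf kidney. The part of these marker shifts in the transporter results was not tested.

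Of the 9 genes, 6 lie on chromosome 19. Slc22a12 is at chr19:6535845-6543032 and Slc22a19 at chr19:7673061-7711310, Slc22a28 (chr19:8062209-8131982) and Slc22a30 (chr19:8335371-8405111) flank Slc22a29 (chr19:8160165-8218900), and Slc22a8 (chr19:8591254-8611835) is the neighbour of Slc22a6 (chr19:8618039-8628299), all on GRCm38. Slc22a2 is at chr17:12584132-12628488, Slc22a7 at chr17:46432183-46438457 and Slc22a13 at chr9:119192974-119209098, inside the span of Slc22a14 on the same strand but sharing none of its exon bases. Slc22a12 overlaps Nrxn2 on the opposite strand, and the strand setting of the counting is not given in the sources used here. The upstream sequences of Slc22a28, Slc22a30 and Slc22a29 are shown because these neighbours differed most between the sexes, the outer pair high in males and the middle gene high in females. Each run is the 250 bases before the RefSeq transcription start (GRCm38.p6, minus strand, 5′ to 3′), and capitals mark the bases not identical to Slc22a30 in the first, to Slc22a28 in the second and to Slc22a28 in the third.
Slc22a28, chr19:8131983-8132232: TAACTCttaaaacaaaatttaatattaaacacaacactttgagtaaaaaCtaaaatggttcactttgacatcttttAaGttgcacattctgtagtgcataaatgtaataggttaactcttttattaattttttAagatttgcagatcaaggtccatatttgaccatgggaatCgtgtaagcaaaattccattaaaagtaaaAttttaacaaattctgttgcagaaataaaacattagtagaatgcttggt
Slc22a30, chr19:8405106-8405355: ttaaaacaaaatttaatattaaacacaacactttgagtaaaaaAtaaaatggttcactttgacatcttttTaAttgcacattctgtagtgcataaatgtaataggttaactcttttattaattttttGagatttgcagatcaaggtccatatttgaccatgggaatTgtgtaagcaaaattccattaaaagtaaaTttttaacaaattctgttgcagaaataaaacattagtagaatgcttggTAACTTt
Slc22a29, chr19:8218901-8219150: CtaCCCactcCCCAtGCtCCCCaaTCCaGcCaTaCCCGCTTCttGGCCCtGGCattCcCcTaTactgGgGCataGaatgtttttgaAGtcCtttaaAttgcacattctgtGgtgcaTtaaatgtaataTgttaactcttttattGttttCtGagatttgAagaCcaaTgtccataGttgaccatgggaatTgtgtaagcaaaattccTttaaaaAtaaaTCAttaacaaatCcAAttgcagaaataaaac
In an alignment of these windows, Slc22a28 and Slc22a30 shared 238 of 250 bases (95.2%), whereas Slc22a28 and Slc22a29 shared 183 (73.2%) and Slc22a29 and Slc22a30 shared 182 (72.8%). The capital runs at the start of the Slc22a28 window and near the end of the Slc22a30 window are an offset of the windows. They face gaps rather than differing bases. Across the other Slc22 genes of this stretch, identity to Slc22a28 was 68.0% for Slc22a19, 63.2% for Slc22a26 and 58.8% for Slc22a27. The lowest identity within the stretch was 53.2%, between Slc22a26 and Slc22a29. Windows of unrelated genes were not aligned, so these shares have no baseline.

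The 9 genes were compared in level per kilobase of exon, counting all annotated exon bases of a gene. This length can exceed that of any transcript: 5431 bases for Slc22a19 and 3368 for Slc22a30, beside longest transcripts of 3574 and 2598 bases. Reads aligned to several places were not counted, which can lower Slc22a28, Slc22a30 and Slc22a13, whose sequences are partly shared. The order of genes close in level is therefore uncertain. In Ctrlm the order by mean CPM per kilobase was Slc22a12 (351 ± 47.6, SD, n = 6), Slc22a6 (191 ± 36.3), Slc22a8 (161 ± 24.6), Slc22a7 (108 ± 49.1), Slc22a2 (107 ± 21.5), Slc22a28 (53.4 ± 8.76), Slc22a30 (41.0 ± 5.94), Slc22a13 (15.6 ± 2.10) and Slc22a19 (11.3 ± 3.53). The ranges of the 6 kidneys did not overlap between Slc22a12 and Slc22a6, Slc22a2 and Slc22a28, and Slc22a30 and Slc22a13, and each other neighbouring pair overlapped. In Ctrlf Slc22a8 led (309 ± 55.8 CPM per kilobase), above Slc22a12 (155 ± 22.6) without overlap, and Slc22a7 (124 ± 27.6) and Slc22a6 (93.5 ± 12.9) followed. Slc22a28 (4.27 ± 1.63) and Slc22a30 (1.78 ± 0.738) were lowest in Ctrlf. In cKOm Slc22a12 (172 ± 25.2) and Slc22a8 (172 ± 17.04) stood together at the top, and Slc22a7 (6.30 ± 2.53) was next to last, above Slc22a19 (5.32 ± 0.993) with overlapping ranges. In cKOf the order of the 9 genes was that of Ctrlf.

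**Figure D1:**
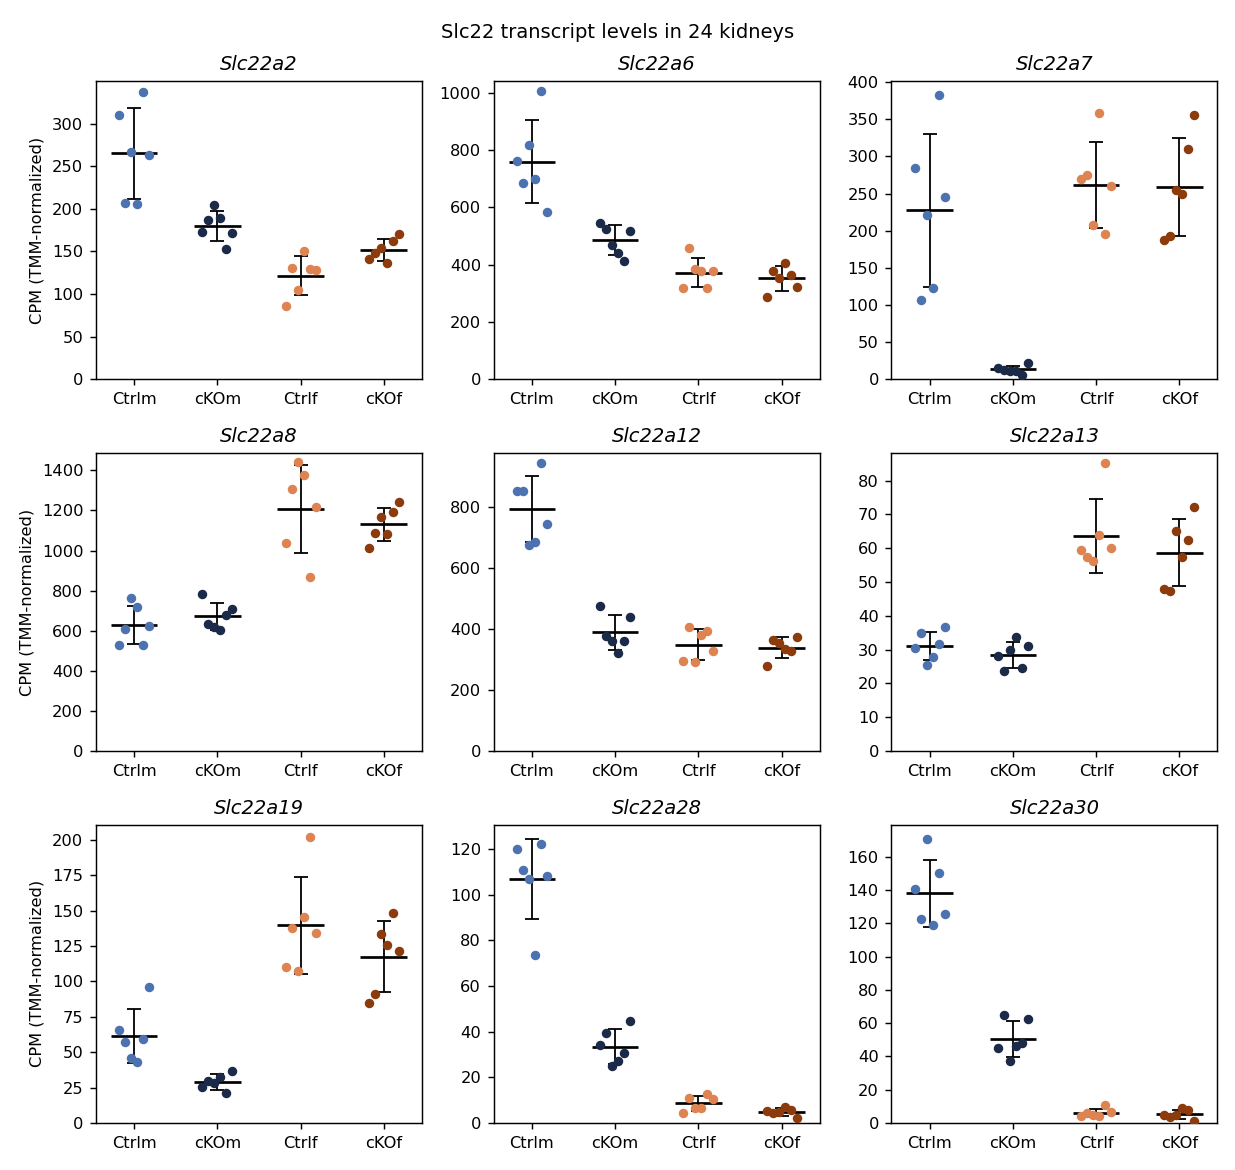
Level of each of the 9 Slc22 transcripts in CPM (vertical axes, each starting at 0) in the 6 kidneys of Ctrlm, cKOm, Ctrlf and cKOf. Points are kidneys, and the wide and capped lines give the mean and SD. Slc22a7 in cKOm lies between 5.76 and 22.002 CPM, under every kidney of the other 3 groups, and Slc22a28 and Slc22a30 are above 24.9 CPM in all males and under 12.9 CPM in all females.

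In males, 7 of the 9 genes were lower in cKOm than in Ctrlm and none was higher (edgeR, adjusted p under 0.05), where 9.05% of all tested genes were called in either direction, 4.9% lower and 4.14% higher. The median log2 fold change of the 9 was -1.03 beside 0.01 for all genes. In each of the 7, all 6 cKOm kidneys were under the lowest Ctrlm kidney, a separation seen in the lower direction in 3.69% of tested genes. That separation by itself fixes the two-sided exact permutation test at p = 0.00216, the smallest that 6 against 6 kidneys allow.

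Slc22a7 (Oat2, a carrier of organic anions and nucleotides) had the largest change of the 9 in males. Its level in Ctrlm ran from 107 to 383 CPM with a median of 233, and in cKOm from 5.76 to 22.002 CPM with a median of 12.5. The highest cKOm kidney was well under the lowest Ctrlm kidney, and the counts behind these levels were 2391 to 7337 and 129 to 563 reads. The log2 fold change was -4.10 (SE 0.30, edgeR adjusted p = 1.2e-09). Within Ctrlm the 4 kidneys rich in liver transcripts held 107 to 285 CPM of Slc22a7 and the other 2 held 245 and 383 CPM. Without the 5 liver-rich male kidneys the log2 fold change was -4.56 (adjusted p = 3.7e-08).

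Slc22a12 (Urat1, the apical urate exchanger) had the highest level per kilobase of the 9 in Ctrlm and fell in cKOm. It measured 677 to 946 CPM in Ctrlm (median 800) and 321 to 476 CPM in cKOm (median 370), beside 293 to 409 CPM in Ctrlf. The log2 fold change in males was -1.03 (SE 0.11, adjusted p = 3.3e-07). Slc22a6 (Oat1, the classical basolateral carrier of organic anions) measured 583 to 1005 CPM in Ctrlm (median 731) and 414 to 547 CPM in cKOm (median 493), without overlap. Its log2 fold change was -0.65 (SE 0.11, adjusted p = 4.2e-04).

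Slc22a2 (Oct2, the basolateral cation carrier) was lower in cKOm by a smaller margin. Its range was 206 to 337 CPM in Ctrlm (median 264) and 153 to 205 CPM in cKOm (median 180), so the groups lay side by side with no overlap. The log2 fold change was -0.56 (SE 0.12, adjusted p = 0.0043). Of the 100-base windows of the Slc22a2 transcript, 2.43% also occur in another gene, and of its 50-base windows 4.71%.

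Slc22a28 and Slc22a30, neighbours on chromosome 19 whose substrates are little known, fell together. Slc22a28 measured 73.7 to 122 CPM in Ctrlm (median 109) and 24.9 to 44.6 CPM in cKOm (median 32.5). Slc22a30 measured 119 to 171 CPM in Ctrlm (median 133) and 37.0 to 64.8 CPM in cKOm (median 47.2). Neither gene overlapped between the groups. The log2 fold changes were -1.68 (SE 0.21, adjusted p = 5.3e-06) and -1.45 (SE 0.24, adjusted p = 2.7e-04). Their transcripts are near copies: 37.0% of the 100-base windows of Slc22a28 and 24.3% of those of Slc22a30 occur in another gene, mostly in each other. For 50-base windows the shares were 53.9% and 36.1%, and the read length is not given. Reads aligned to several places were not counted, so the split between the 2 genes is uncertain. With both counts added up as 1 feature, an alternative chosen after seeing the data, the log2 fold change was -1.54 (adjusted p = 6.2e-05).

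Slc22a19 (Oat5, an apical carrier of organic anions such as steroid sulfates) was the one gene high in females that also fell in cKOm. It measured 43.1 to 96.3 CPM in Ctrlm (median 58.2) and 21.2 to 36.7 CPM in cKOm (median 28.7), and the highest Ctrlm kidney was kidney 6, the one with the fewest liver transcripts. The log2 fold change was -1.08 (SE 0.18, adjusted p = 2.6e-04).

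Slc22a8 and Slc22a13 did not pass the test in males. Slc22a8 (Oat3, the basolateral partner of Oat1 encoded next to it) measured 528 to 763 CPM in Ctrlm (median 615) and 606 to 783 CPM in cKOm (median 658). Its log2 fold change of 0.10 had a 95% interval of -0.12 to 0.32, and the ranges of the groups overlapped from 606 to 763 CPM. Without the 5 liver-rich male kidneys it was 0.22 (adjusted p = 0.581). Slc22a13 (Oat10, an apical carrier of urate and nicotinate) measured 25.3 to 36.6 CPM in Ctrlm (median 31.0) and 23.7 to 33.7 CPM in cKOm (median 29.0), a log2 fold change of -0.13 with an interval of -0.37 to 0.12, and of -0.35 (adjusted p = 0.394) without the 5 kidneys. Of the 100-base windows of Slc22a13, 21.8% also occur in the pseudogene Slc22a13b-ps, and of its 50-base windows 36.0%. The adjacent genes Slc22a6 and Slc22a8 thus had log2 fold changes of -0.65 and 0.10 with intervals that did not meet (-0.88 to -0.41 and -0.12 to 0.32).

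All 7 male calls held with a liver transcript score as covariate and without the 5 liver-rich kidneys, with Slc22a2 (adjusted p = 0.0330 with the covariate) and Slc22a30 (adjusted p = 0.0382 without the kidneys) nearest to the threshold. Without the 5 kidneys the log2 fold changes were -0.79 for Slc22a2, -0.72 for Slc22a6, -1.11 for Slc22a12, -1.49 for Slc22a19, -1.76 for Slc22a28 and -1.46 for Slc22a30, all still called lower. Leaving out those kidneys was chosen after seeing the data. The levels of Slc22a7, Slc22a28 and Slc22a30 against the liver score place the 2 Ctrlm kidneys with few liver transcripts above every cKOm kidney in all 3 genes, and Ctrlm kidney 5 was the highest Ctrlm kidney for Slc22a7 and Slc22a28.

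**Figure D2:**
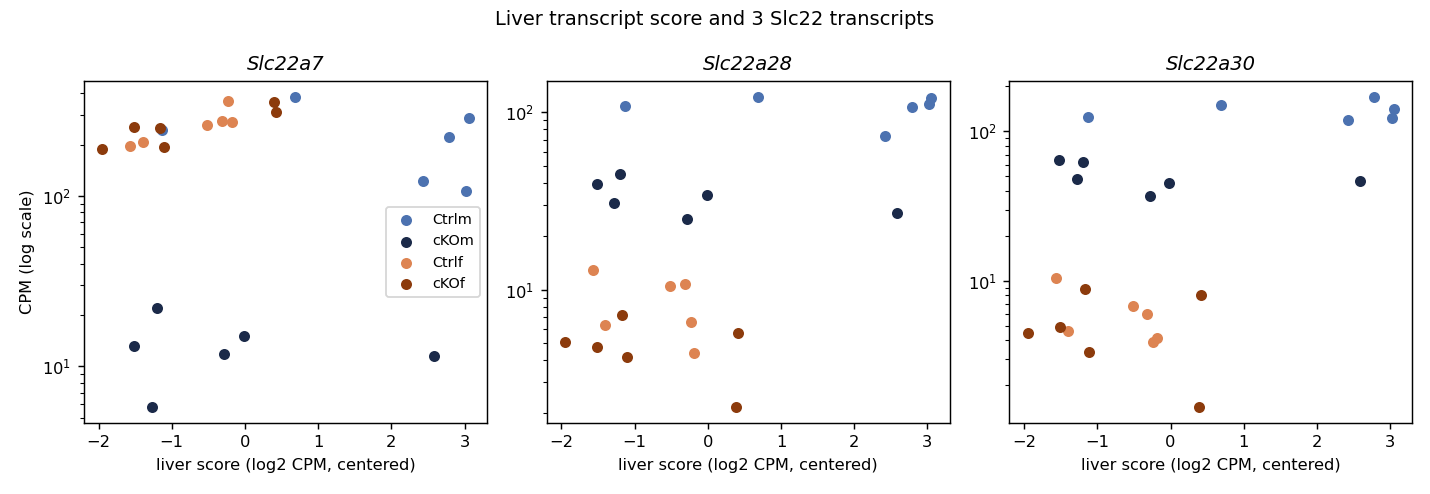
Levels of Slc22a7, Slc22a28 and Slc22a30 (vertical axes, CPM on a log scale) against the liver score, the mean log2 CPM of 7 hepatocyte genes centered over 24 kidneys (horizontal axes). Each point is a kidney, colored by group. The cKOm kidneys lie under the Ctrlm kidneys at low and at high scores, and the score is over 2 in 4 Ctrlm kidneys and 1 cKOm kidney.

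In females, 1 of the 9 genes, Slc22a28, was called lower in cKOf than in Ctrlf and none was called higher, where 0.851% of all tested genes were called in either direction, 0.46% lower and 0.391% higher. The median log2 fold change of the 9 was -0.10 beside 0.00 for all genes. Slc22a28 measured 4.38 to 12.9 CPM in Ctrlf (median 8.48) and 2.17 to 7.18 CPM in cKOf (median 4.90). The groups overlapped, with 2 cKOf kidneys under the lowest Ctrlf kidney. The log2 fold change was -0.83 (SE 0.23, edgeR adjusted p = 0.0343), and the two-sided exact permutation test gave p = 0.0390. The call rested on 44 to 402 reads per kidney and was lost when any one of Ctrlf kidneys 2, 5 and 6 or cKOf kidneys 1, 2, 3 and 6 was left out (highest adjusted p 0.104), and with Slc22a30 added in (log2 fold change -0.55, adjusted p = 0.261).

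Slc22a2 was the one gene of the 9 with a positive log2 fold change in females. It measured 86.3 to 151 CPM in Ctrlf (median 129) and 137 to 170 CPM in cKOf (median 151), with 3 cKOf kidneys over the highest Ctrlf kidney. The log2 fold change of 0.32 (95% interval 0.07 to 0.57) did not pass the adjusted test (adjusted p = 0.146), and its exact permutation p was 0.0152 before any adjustment. Slc22a7, the gene that changed most in males, measured 196 to 359 CPM in Ctrlf (median 266) and 188 to 356 CPM in cKOf (median 252). These ranges nearly coincide, and the log2 fold change was -0.02 with an interval of -0.55 to 0.51.

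The other 6 genes did not pass the test in females, and the groups overlapped in each. Slc22a12 ranged over 293 to 409 CPM in Ctrlf and 280 to 375 CPM in cKOf (log2 fold change -0.04, interval -0.26 to 0.18). Slc22a6 ranged over 318 to 458 CPM and 287 to 408 CPM (-0.08, interval -0.31 to 0.15), and Slc22a8 over 868 to 1442 CPM and 1015 to 1240 CPM (-0.10, interval -0.32 to 0.13). Slc22a13 ranged over 56.2 to 85.1 CPM and 47.3 to 72.2 CPM (-0.12, interval -0.36 to 0.13), Slc22a19 over 108 to 202 CPM and 84.5 to 148 CPM (-0.25, interval -0.61 to 0.11), and Slc22a30 over 3.92 to 10.5 CPM and 1.43 to 8.80 CPM (-0.23, interval -0.80 to 0.34). The interval of Slc22a30 was the widest of these 6.

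Whether the genotype effect differed between the sexes was tested directly, as the male minus the female log2 fold change. It passed for 3 of the 9 genes, where 2.31% of all tested genes passed and 1.49% passed with a lower male value, and in all 3 the male effect was the lower one. The difference was -4.08 (SE 0.38, edgeR adjusted p = 3.8e-07) for Slc22a7, -0.98 (SE 0.15, adjusted p = 2.7e-04) for Slc22a12 and -0.88 (SE 0.17, adjusted p = 0.00311) for Slc22a2. For Slc22a2 the log2 fold changes had opposite signs in the sexes, -0.56 in males and 0.32 in females. The paper found proximal tubules of cKOm and cKOf almost without peroxisomes, but some full-length Pex5 mRNA and PEX5 protein remained in cKOf. Sex and completeness of deletion thus cannot be told apart in the male minus female difference.

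Of the 4 further genes called in males, none passed this test of the difference. It was -0.56 for Slc22a6 (adjusted p = 0.0590), -1.22 for Slc22a30 (adjusted p = 0.0845), -0.83 for Slc22a19 (adjusted p = 0.0860) and -0.84 for Slc22a28 (adjusted p = 0.198). Without the liver-rich male kidneys Slc22a19 did pass (-1.24, adjusted p = 0.0327), and the 3 genes above still passed. For Slc22a28, called in both sexes, the 95% interval of the difference before adjustment was -1.49 to -0.20.

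**Figure D3:**
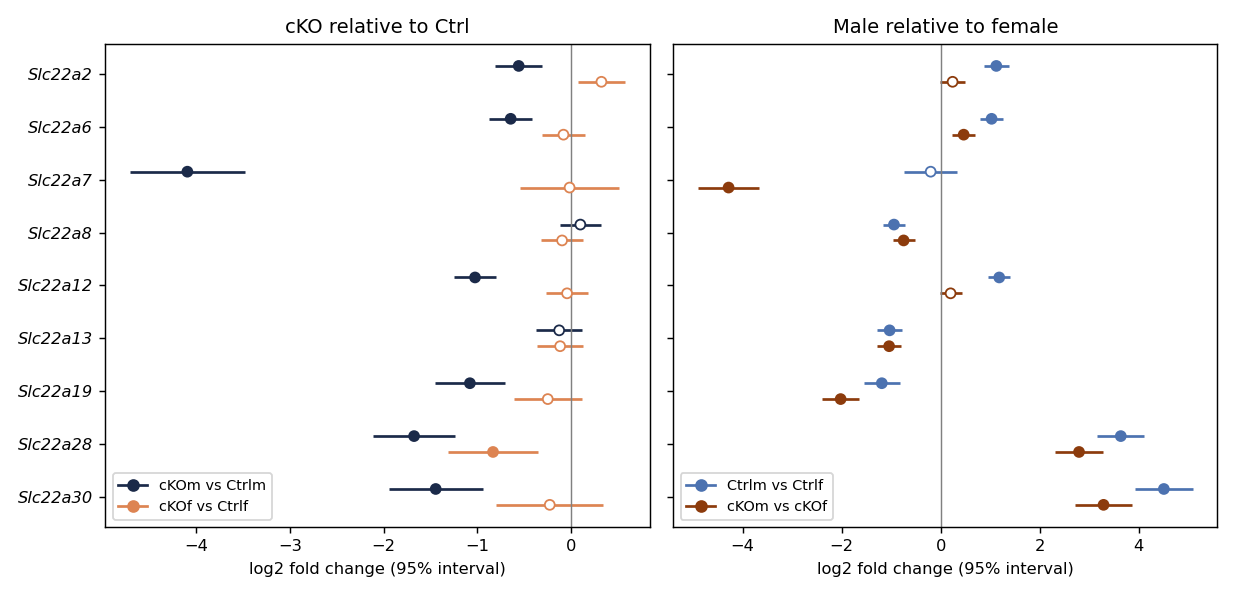
Log2 fold changes of the 9 Slc22 genes (horizontal axes) with 95% intervals, for cKO relative to Ctrl in each sex (left) and for males relative to females in each genotype (right). Filled points passed the edgeR test at an adjusted p under 0.05 and open points did not. In males 7 of the 9 points are filled and lie left of 0, and on the right Slc22a2 and Slc22a12 are filled in Ctrl and open in cKO.

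Control kidneys of the sexes differed in 8 of the 9 genes, with 5 higher and 3 lower in Ctrlm, where 15.7% of all tested genes were called, 8.17% higher and 7.48% lower. All 8 separated the 6 Ctrlm from the 6 Ctrlf kidneys without overlap, which 7.35% of tested genes did. Slc22a30 was at 138 ± 20.01 CPM in Ctrlm and 6.01 ± 2.48 CPM in Ctrlf (SD, n = 6 each, log2 fold change 4.51, SE 0.28, adjusted p = 3.1e-12) and Slc22a28 was 12.5-fold higher in mean CPM in Ctrlm (log2 fold change 3.64, SE 0.23, adjusted p = 4.4e-12). Slc22a12, Slc22a2 and Slc22a6 were 2.27-fold, 2.18-fold and 2.04-fold higher in Ctrlm. The genes higher in Ctrlf were Slc22a19 (2.28-fold), Slc22a13 (2.04-fold) and Slc22a8 (1.92-fold). Slc22a7 was the exception, with a log2 fold change of -0.20 (interval -0.73 to 0.33, adjusted p = 0.694) and overlapping ranges. Without the 5 liver-rich male kidneys its difference changed sign to 0.29 (adjusted p = 0.639). The 8 calls kept their directions then. Of the genes high in Ctrlf, Slc22a19 stood at -0.83 (edgeR adjusted p = 0.0425), Slc22a13 at -0.88 (adjusted p = 0.0022) and Slc22a8 at -1.05 (adjusted p = 7.7e-05).

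Among cKO kidneys 7 of the 9 genes differed between the sexes, 3 higher and 4 lower in cKOm, where 9.72% of all tested genes were called, 4.8% higher and 4.92% lower. Slc22a7 was now 19.5-fold lower in mean CPM in cKOm than in cKOf (log2 fold change -4.28, SE 0.30, adjusted p = 2.6e-11). Slc22a19 was 4.06-fold, Slc22a13 2.06-fold and Slc22a8 1.68-fold lower in cKOm. Slc22a30 was 9.79-fold, Slc22a28 6.93-fold and Slc22a6 1.38-fold higher in cKOm, so these 3 kept a male excess. Slc22a2 and Slc22a12 did not pass the test among cKO kidneys, with log2 fold changes of 0.24 (interval -0.01 to 0.49) and 0.20 (interval -0.02 to 0.42) and overlapping ranges. The change of the sex difference with genotype is the same quantity as the difference of genotype effects given above, and it passed for Slc22a2, Slc22a7 and Slc22a12.

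The sex difference and the male genotype effect share the Ctrlm kidneys, so the values are set side by side with no measure of likeness. The 5 genes high in Ctrlm over Ctrlf, at log2 fold changes of 4.51 for Slc22a30, 3.64 for Slc22a28, 1.18 for Slc22a12, 1.12 for Slc22a2 and 1.03 for Slc22a6, had male genotype log2 fold changes of -1.45, -1.68, -1.03, -0.56 and -0.65. The 3 genes high in Ctrlf, at -1.19 for Slc22a19, -1.03 for Slc22a13 and -0.94 for Slc22a8, had male genotype values of -1.08, -0.13 and 0.10.

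Between Slc22a28 and Slc22a30 lies Slc22a29, which is no member and showed the opposite sex difference. It measured 0.0988 to 4.38 CPM in Ctrlm and 22.2 to 44.7 CPM in Ctrlf, a log2 fold change of -3.37 (SE 0.35, edgeR adjusted p = 4.6e-08). In males it had a genotype log2 fold change of 0.36 that did not pass the test (adjusted p = 0.708). Slc22a27, on the far side of Slc22a28, was also lower in Ctrlm than in Ctrlf (log2 fold change -2.22, adjusted p = 0.00622) at levels of at most 2.56 CPM in any kidney.

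**Figure D4:**
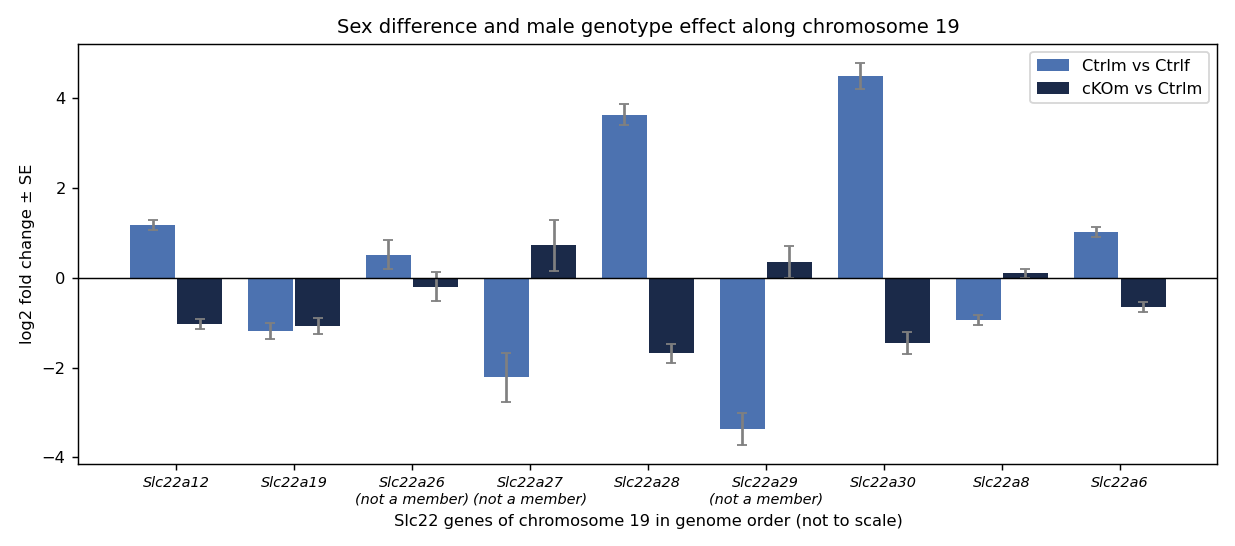
Log2 fold change ± SE (vertical axis) of the tested Slc22 genes of chromosome 19 in genome order (horizontal axis, not to scale), for Ctrlm relative to Ctrlf and for cKOm relative to Ctrlm. Slc22a28 and Slc22a30 have the tallest bars upward for sex, at 3.64 and 4.51, and Slc22a29 between them the tallest downward, at -3.37.

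Among the other 14 tested Slc22 genes, 2 were higher and 3 lower in cKOm than in Ctrlm, with a median log2 fold change of 0.21, and none was called in females. Of all tested genes, 4.14% were called higher and 4.9% lower in males, and 0.851% in either direction in females. Without the 5 liver-rich male kidneys, 1 higher and 2 lower calls remained, those of Slc22a14, Slc22a18 and Slc22a22. Slc22a16 and Slc22a20 had no read in any kidney. Slc22a14 is known mainly from the testis. It rose from a range of 0.198 to 0.923 CPM in Ctrlm to a range of 1.60 to 4.46 CPM in cKOm (log2 fold change 2.43, adjusted p = 2.6e-05). This rise rested on 4 to 22 reads per Ctrlm kidney and 39 to 100 per cKOm kidney. The span of Slc22a14 overlaps 7 other genes, among them Acaa1a on the opposite strand and Slc22a13 on the same strand. The part of these overlaps in its count was not tested. Slc22a18, an imprinted gene, fell from a range of 119 to 199 CPM to one of 58.4 to 86.5 CPM (log2 fold change -1.04, adjusted p = 2.0e-05). Slc22a22, a prostaglandin carrier, fell from a range of 84.3 to 118 CPM to one of 48.8 to 62.5 CPM (log2 fold change -0.86, adjusted p = 3.9e-06).

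The surrounding machinery of organic ion handling was followed in 31 further genes. In males 3 were higher and 9 lower in cKOm, beside 4.14% and 4.9% of all tested genes. None was called in females, where 0.851% of all tested genes were. Without the 5 liver-rich male kidneys 6 of these 12 calls were lost, those of Abcc4, Slc47a1, Slco1a6, Slco2b1, Slc9a3r1 and Esr1, and the direction of each was the same. Slc13a3, the dicarboxylate carrier that feeds Oat1 and Oat3, and Atp1b1, a basolateral pump subunit, did not pass the test in males, with log2 fold changes of -0.09 and 0.08. Of 7 apical efflux pumps and exchangers, Abcb1b (log2 fold change 1.43) and Abcc4 (0.71) rose and Slc47a1, the cation exchanger in series with Oct2, fell (-0.37). Abcb1b encodes a multidrug efflux pump, and its level was 6.69 to 15.7 CPM in Ctrlm and 16.6 to 38.2 CPM in cKOm, without overlap.

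Of 7 apical anion and urate carriers, Slc17a3 (-0.999), Slc5a8 (-0.69) and Slc17a1 (-0.34) fell in cKOm. Of 6 Slco genes, a second family of organic anion carriers, 4 fell, the largest falls being those of Slco1a1 (-7.56), Slco3a1 (-1.09) and Slco2b1 (-0.58). Slco1a1 stood at 207 to 509 CPM in Ctrlm and 0.223 to 3.44 CPM in cKOm, and at no more than 2.34 CPM in any female kidney. Of 2 scaffold proteins of the apical membrane, Slc9a3r1 fell (-0.41) and Pdzk1 had a log2 fold change of -0.18 (adjusted p = 0.408).

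Of 6 transcription factors and hormone receptors associated with these genes, 1 was called in males. Esr1, the estrogen receptor, rose from a range of 13.8 to 21.7 CPM in Ctrlm to an overlapping range of 16.7 to 35.0 CPM in cKOm (log2 fold change 0.50, adjusted p = 0.0330). Female kidneys were lower in Esr1 than Ctrlm kidneys, at 8.15 to 10.1 CPM in Ctrlf and 7.24 to 10.8 CPM in cKOf. Hnf4a and Hnf4g had male log2 fold changes of 0.20 and 0.27, and neither passed the test in either sex. Transcript levels of a receptor say nothing of its activity.

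Over the 24 kidneys, the genes whose log2 level followed each member most closely were described by Pearson's r, which here carries the sex and genotype groups shared by all points. Slc22a7 was followed by Bdh1, a ketone body enzyme (r = 0.966), Cyp51 of cholesterol synthesis (0.943) and Gpm6a (0.926). Slc22a28 and Slc22a30 followed each other (0.983), then Ces1f (0.969) and Slc7a13 (0.963) for Slc22a28 and C1qtnf3 (0.972) and Aldh3a2 (0.971) for Slc22a30. Slc22a12 was nearest to Cndp2 (0.957), Cpe (0.953) and Crot (0.951), Slc22a6 to Cndp2 (0.943), Cckar (0.939) and Serpinf2 (0.939), and Slc22a2 to Cpe (0.917), Me1 (0.905) and Tmem183a (0.901). Slc22a13 and Slc22a19 shared Kyat3 as their nearest gene (0.953 and 0.954), followed by Slc6a18 (0.936) and Rdh16f2 (0.931) for the first and Slc9a8 (0.943) and Slc5a10 (0.934) for the second, and Slc22a8 was nearest to Cotl1 (0.938), Pdxk (0.927) and Cbr1 (0.925). Among the members themselves, Slc22a13 and Slc22a19 had r = 0.923 and Slc22a6 and Slc22a12 r = 0.899, whereas Slc22a7 and Slc22a6 had r = -0.07.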

How the data were processed

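RNA of 24 whole kidneys was sequenced as stranded mRNA libraries. The authors deposited raw read counts per gene, made per the labels with cutadapt 1.8, STAR 2.5.3a and HTSeq 0.9.1 on GRCm38; read length and the strand setting of the counting are not given in the sources used here. The labels name ZT9 as the time of tissue collection in one note and ZT3 as the time of experiments in another. The 5 closing lines of each file name no gene and were left out: reads aligned to several places were 26.9 to 34.8% of all reads, reads on no gene 4.45 to 6.66% and ambiguous reads 0.706 to 0.939%. Gene symbols and positions came from the GENCODE M21 annotation of GRCm38, which named 55154 of 55335 genes.

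The 16092 genes that reached 1 CPM in 1 kidney or more were tested. edgeR 4.0.16 (R 4.3.3) fitted 1 quasi-likelihood model over the 4 groups with TMM normalization, and p-values were adjusted by Benjamini-Hochberg over the male and female genotype tests together, over both sex contrasts together and over the interaction, at a threshold of 0.05. CPM values are TMM-normalized, and intervals are at 95%. Exact permutation tests compared mean CPM of 6 against 6 kidneys. Named genes were the 9 members and Pex5, up to 3 called genes of each list with the largest log2 fold change, every regulator, and the 3 genes most correlated with each member. Genes that fall outside this rule, or are named with the pathway lists for their values (Slc22a26, Slc22a27 and Slc22a29 as neighbours, Slc22a16 and Slc22a20 as genes without reads, uncalled list members and markers), were chosen after their values were seen. Some genes of the lists and the motif searches that go with them are not reported here. The members and lists were chosen with earlier results of these data known. limma-voom (limma 3.58.1) and DESeq2 1.42.0 were alternatives. The fits were tested on simulated data. Replicate numbers name different mice: of 12 same-number pairs, 1 had a correlation of deviations over 0.1 (range -0.20 to 0.12), so they were not treated as pairs. Replicates of a group differed by more than counting noise (chi-square per degree of freedom 9.24 to 91.1 over 60 pairs).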

Additional observations from a re-analysis of the deposited data

Results flagged for a closer look

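The genotype effect differed between the sexes, by a test of the difference itself, for Slc22a2 (male minus female log2 fold change -0.88), Slc22a7 (-4.08) and Slc22a12 (-0.98). Completeness of the deletion may also differ between the sexes.

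In 2 of 36 sets of 6 kidneys (9 genes in 4 groups), 1 kidney stood apart from the other 5, where chance gives about 1 in 20. Slc22a13 was at 85.1 CPM in Ctrlf kidney 5, and the next highest kidney was at 63.8 CPM. Slc22a28 was at 73.7 CPM in Ctrlm kidney 4, and the next lowest was at 107 CPM.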

How the results depend on the processing

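The male calls and non-calls of all 9 genes kept their direction and side of the threshold under every alternative run: limma-voom, DESeq2, RLE normalization, other filters on low counts, only the 2 groups compared, adjustment within each contrast, the replicate block, a liver score covariate, and each kidney left out. They also kept them without the 5 male kidneys of liver score over 2, chosen after seeing the data. The female count of 1 fell to 0 with limma-voom, with only the 2 groups compared, with adjustment within each contrast, without the liver-rich male kidneys and with the replicate block, and ranged from 0 to 1 with 1 kidney left out. The count of genes whose genotype effect differed between the sexes rose from 3 to 5 with DESeq2, and ranged from 3 to 5 with 1 kidney left out, with 5 without Ctrlf kidney 5. It was 4 without the liver-rich male kidneys. Without the liver-rich male kidneys, the calls among the other Slc22 and organic ion handling genes went from 17 to 9, 2 higher and 7 lower, with fewer samples. The sign turned for the Slc22a13 interaction with the liver score covariate (0.019) and for the Slc22a7 sex difference in Ctrl without the liver-rich kidneys (0.29). With 1 kidney left out, values near 0 crossed it: the Slc22a13 interaction (-0.14 to 0.058), and the female log2 fold changes of Slc22a7 (-0.13 to 0.086), Slc22a12 (-0.090 to 0.0067) and Slc22a30 (-0.43 to 0.021). Apart from its female count, the replicate block changed no count of calls among the 9 genes. The cause of these changes was not tested. For Slc22a28 and Slc22a30 in females, 29 to 402 reads per kidney were counted, and the part of depth in their results was not tested.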
